A study of Mus musculus with 6 samples.

Results

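The 10 genes described here code for the MHC class II antigen presentation machinery of the mouse, and were chosen by name from the deposited table. All 10 are among its 24972 rows. They are the chains that carry peptide to the cell surface (*H2-Aa*, *H2-Ab1*, *H2-Eb1*), the invariant chain (*Cd74*), the peptide exchange factor H2-DM (*H2-DMa*, *H2-DMb1*, *H2-DMb2*), its inhibitor H2-DO (*H2-Oa*, *H2-Ob*) and the coactivator of these genes (*Ciita*). The libraries came from bone marrow-derived macrophages of mice with a knockout of *Lcn10*, a gene for a secreted carrier protein of the lipocalin family (Lcn10-KO, 3 libraries), and of wild-type mice (WT, 3 libraries). Both groups were untreated, and their marrow cells were differentiated in medium with L929 cell supernatant, which supplies macrophage growth factor. The labels give no strain, sex or age. Whether each replicate stands for another mouse is not stated either, and the p-values here therefore describe the spread between these libraries, which may be technical. *Lcn10* was listed at 0 in all 6 libraries, and it gives no check of the genotype labels.

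Class II molecules are pairs of an alpha and a beta chain that show peptides from endosomes to CD4 T cells. The invariant chain fills the groove of a new pair in the endoplasmic reticulum, lysosomal proteases trim it, and H2-DM then exchanges the remaining fragment for a peptide. CIITA does not bind DNA itself. It is recruited to a conserved promoter module, the X and Y boxes, by RFX, CREB and NF-Y factors, and macrophages raise it when they meet interferon-gamma.

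No class II gene differed between the genotypes past the threshold, a Benjamini-Hochberg adjusted p under 0.05 from limma over the 12091 genes tested. *H2-Eb1* came closest, with 138 ± 4.87 normalized counts in Lcn10-KO and 99.8 ± 17.0 in WT (mean ± SD, n = 3 each) and an adjusted p of 0.0528. *Cd74* was the most abundant of the 10 and lay at 2386 ± 235 in Lcn10-KO and 2715 ± 299 in WT. *Ciita*, *H2-DMb2*, *H2-Oa* and *H2-Ob* stayed under 20 normalized counts in every library. Values are read counts that the authors scaled between libraries, called normalized counts here, and a single read was worth 0.824 to 1.14 of them.

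The Y box of these promoters reads ATTGG on the strand of the gene and is the site of NF-Y. RefSeq promoter windows (GRCm38.p6, 250 bases before to 50 bases after a start) were found for 7 of the 10 genes, *H2-DMa* with 2 of them. The stretches around the Y box are shown because they let the regulatory module be compared with the level of each gene. Capitals mark ATTGG and, upstream of it, the AAC of the X box region.
H2-Aa: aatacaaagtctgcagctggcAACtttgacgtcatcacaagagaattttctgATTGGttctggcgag
H2-Eb1: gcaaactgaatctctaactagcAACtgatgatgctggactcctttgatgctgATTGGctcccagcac
H2-DMb1: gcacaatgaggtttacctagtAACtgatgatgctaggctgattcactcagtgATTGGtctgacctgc
H2-DMb2: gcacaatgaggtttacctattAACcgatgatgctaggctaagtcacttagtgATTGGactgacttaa
H2-Oa: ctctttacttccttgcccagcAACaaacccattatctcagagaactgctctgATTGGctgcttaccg
H2-Ob: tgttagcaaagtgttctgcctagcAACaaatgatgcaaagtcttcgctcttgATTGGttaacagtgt
The windows lie at chr17:34287857-34287923 on the minus strand for *H2-Aa*, and on the plus strand at chr17:34305756-34305822 for *H2-Eb1*, chr17:34153078-34153144 for *H2-DMb1*, chr17:34145107-34145173 for *H2-DMb2*, chr17:34092284-34092350 for *H2-Oa* and chr17:34238796-34238862 for *H2-Ob*. The motif searched was AAC, then 25 to 33 bases of any kind, then ATTGG, and it was written after these promoters had been read. In the windows of class II genes it was searched on the strand of the gene only. It was found in 6 of the 8 windows of class II genes and in neither window of *H2-DMa*. Of 32851 promoter windows of the same length, 2.51% hold it on the strand of the gene and 5.17% on either strand. ATTGG alone is held by 37.4% on either strand. The gap between AAC and ATTGG was 28 bases in *H2-Aa*, *H2-DMb1*, *H2-DMb2* and *H2-Oa*, 27 in *H2-Eb1* and 25 in *H2-Ob*. The Y box began between 43 bases (*H2-Oa*) and 90 bases (*H2-DMb2*) before the RefSeq start around which the window was taken. The GENCODE gene spans given with the values use other starts, and those of *H2-DMb1* and *H2-DMb2* begin upstream of the windows printed here.

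Levels between genes were compared per kb of the longest coding transcript of the gene in the GENCODE M21 annotation. *Cd74* (chromosome 18, 60803848 to 60812652, plus strand) stood at 1692 ± 166 normalized counts per kb in Lcn10-KO and 1926 ± 212 in WT (SD, n = 3 each), higher than 93.6% of the tested genes with a length. On the mean of the 6 libraries this was 6.39 times the level of the next gene, *H2-DMb1*, and the libraries of these genes did not overlap. *H2-DMb1*, *H2-Aa*, *H2-Ab1*, *H2-DMa* and *H2-Eb1* followed in that order, and *H2-Eb1* ranked above 26.1% of tested genes. Within this middle group the 6 libraries of *H2-DMb1* and *H2-Aa* overlapped, as did those of *H2-Ab1* and *H2-DMa*. A gap of 16.4 times on the means separated *H2-Eb1* from *H2-DMb2*, and the libraries of these did not overlap. The lowest 4, *H2-DMb2*, *H2-Ob*, *Ciita* and *H2-Oa*, overlapped from neighbour to neighbour and ranked above no more than 3.01% of the tested genes.

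**Figure D1:**
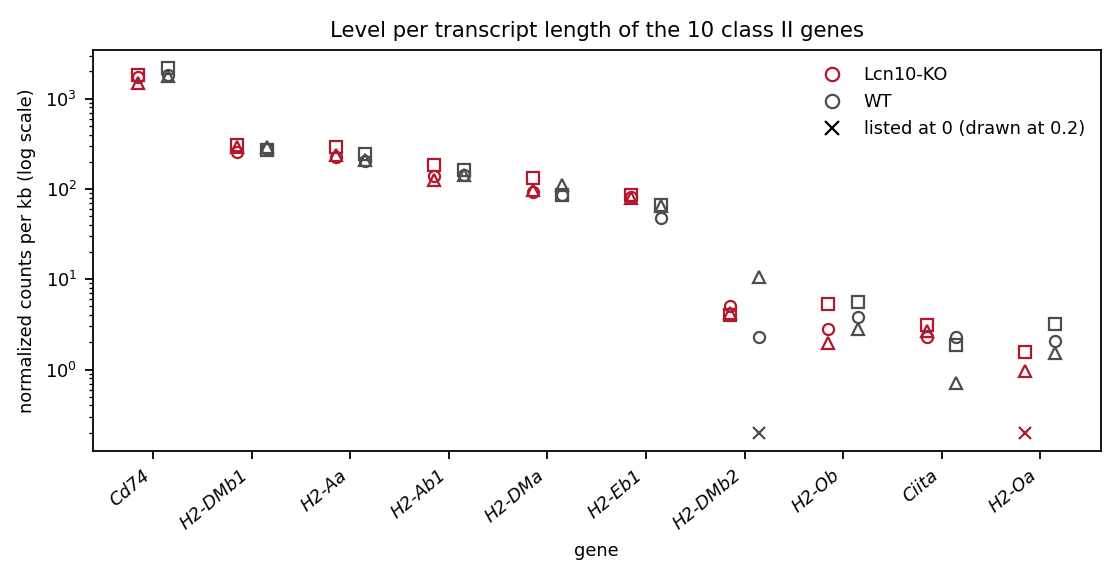
Normalized counts per kb of transcript (log axis) for the 10 class II genes, in order of the mean over the 6 libraries, with Lcn10-KO libraries in red and WT libraries in grey (circle, square and triangle for replicates 1, 2 and 3) and crosses for values listed at 0, drawn at 0.2. *Cd74* stands above the rest, 5 genes form a middle group, and *H2-DMb2*, *H2-Ob*, *Ciita* and *H2-Oa* lie far below them.

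The peptide-presenting chains were measured in about 71 to 392 reads per library and gene. *H2-Aa* (ENSMUSG00000036594.15, chromosome 17, 34282744 to 34287823, minus strand), which codes for the alpha chain of I-A, had 256, 331 and 268 normalized counts in Lcn10-KO replicates 1 to 3, against 232, 277 and 236 in WT replicates 1 to 3. The groups overlapped, since WT replicate 2 exceeded Lcn10-KO replicates 1 and 3, and the log2 fold change (Lcn10-KO minus WT) was 0.19 ± 0.11 (SE; limma adjusted p = 0.297). Without Lcn10-KO replicate 2, its highest library, it was 0.080. *H2-Ab1* (chromosome 17, 34257689 to 34269419, plus strand), the beta chain of the same pair, had 169.6, 226 and 151 normalized counts in Lcn10-KO, against 172, 197 and 175 in WT. Lcn10-KO held both the highest and the lowest library, and the log2 fold change was −0.01 ± 0.14 (adjusted p = 0.970). Its 95% interval, −0.31 to 0.29, leaves room for changes of up to 1.22-fold higher and 0.804 times WT.

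*H2-Eb1* (ENSMUSG00000060586.11, chromosome 17, 34305867 to 34316674, plus strand), the beta chain of I-E, had 137, 143 and 133 normalized counts in Lcn10-KO, against 80.4, 112 and 107 in WT. Every Lcn10-KO library lay above every WT library. The log2 fold change was 0.48 ± 0.14 (SE; unadjusted p = 0.00557, adjusted p = 0.0528 in limma), a 1.39-fold difference with a 95% interval of 1.12 to 1.72 that is not corrected for the number of genes. Of the 6 fits that left out a library, it passed the threshold in the one without WT replicate 2 (adjusted p = 0.0281) and not in the others (0.0719 to 0.191). With a filter of at least 50 in 3 libraries its adjusted p was 0.0493. The alpha chain gene that would pair with it is named as a pseudogene in the table, *H2-Ea-ps*, and is known to be broken by a promoter deletion in C57BL/6 mice. *H2-Ea-ps* had a value in a single library, 1.14 in WT replicate 2, and *H2-Eb2* did not exceed 1.07.

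*Cd74* (ENSMUSG00000024610.15), the invariant chain, had 2449.9, 2582 and 2126 normalized counts in Lcn10-KO, against 2607, 3053 and 2486 in WT. Lcn10-KO replicate 2 lay above WT replicate 3, so the groups overlapped. The log2 fold change was −0.19 ± 0.09 (SE; limma adjusted p = 0.267), with a 95% interval of −0.41 to 0.04. With Lcn10-KO replicate 3 left out it was −0.10, and with WT replicate 2 left out −0.098.

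*Ciita* (ENSMUSG00000022504.10, chromosome 16, 10480059 to 10528418, plus strand) had 13.7, 18.9 and 16.0 normalized counts in Lcn10-KO, against 13.9, 11.1 and 4.21 in WT. Lcn10-KO replicate 1 lay below WT replicate 1, and WT replicate 3 was far lower than the rest. The log2 fold change on the log2(value + 1) scale was 0.80 ± 0.42 (SE; limma adjusted p = 0.246). It was 0.35 without WT replicate 3 and 1.10 without WT replicate 1. With about 5 to 22 reads per library, the 95% interval ran from −0.10 to 1.70. *Dexi* on the opposite strand shares 111 of the 8225 exon bases of *Ciita* and had 140.2 to 161 normalized counts, and the strand setting of the counting is not given in the sources used here.

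**Figure D2:**
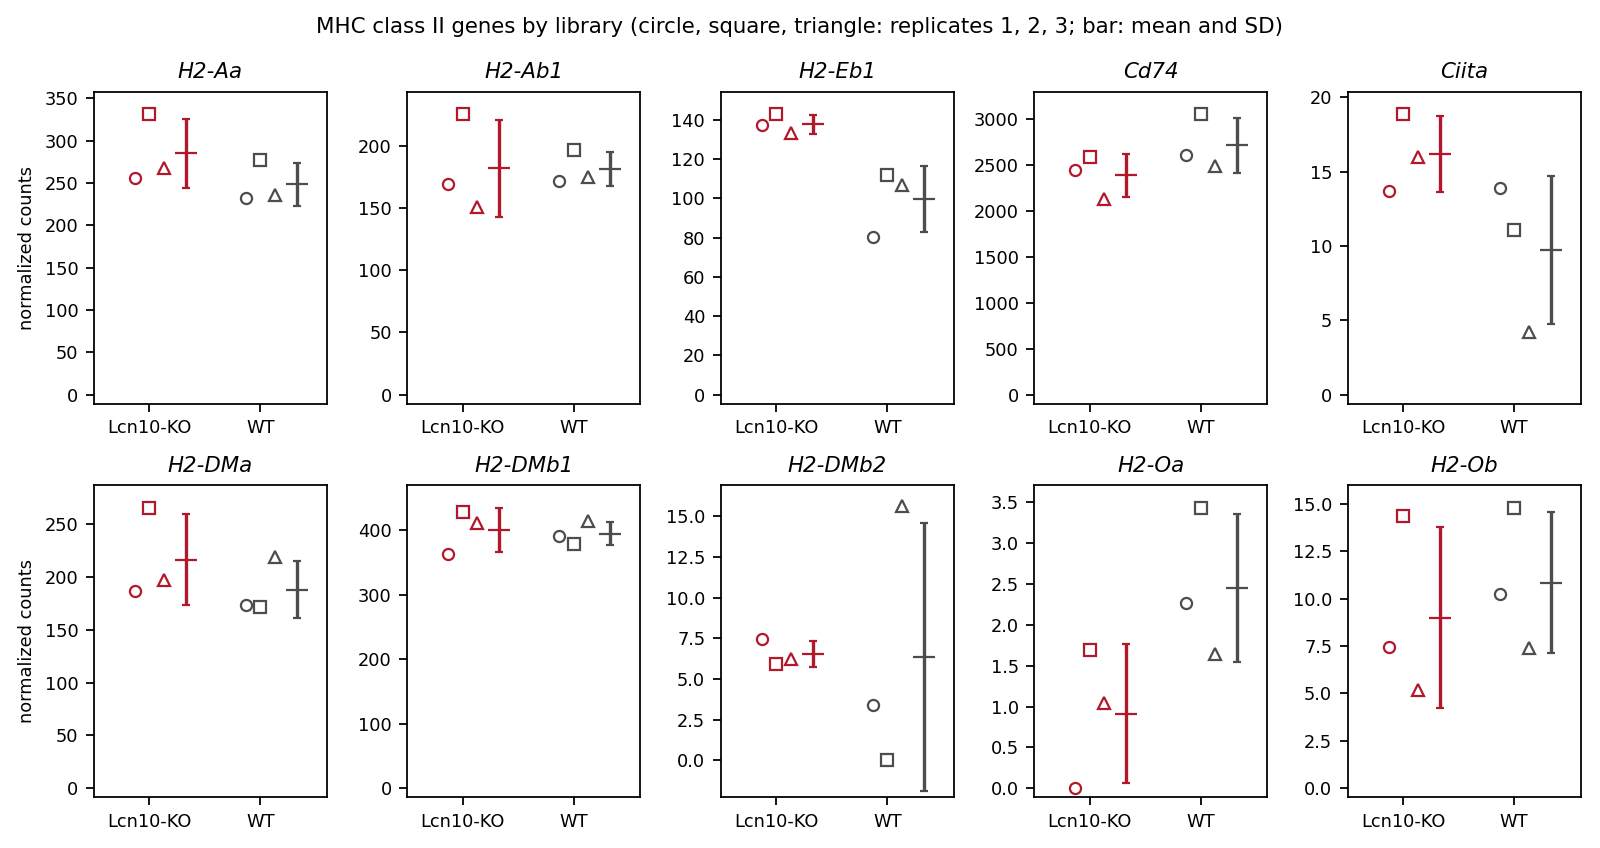
Normalized counts of the 10 class II genes in each library, Lcn10-KO on the left and WT on the right of each panel, with circle, square and triangle for replicates 1, 2 and 3 and a bar for mean and SD (n = 3). *H2-Eb1* is the only panel in which every Lcn10-KO library lies above every WT library, and the square of Lcn10-KO replicate 2 is the highest point for 6 of the 10 genes. The WT bar of *H2-DMb2* reaches below 0 because its SD (8.23) exceeds its mean (6.35).

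H2-DM consists of an alpha chain from *H2-DMa* and a beta chain from *H2-DMb1* or *H2-DMb2*. *H2-DMa* (chromosome 17, 34119541 to 34139101, plus strand) had 187, 266 and 197 normalized counts in Lcn10-KO, against 173, 172 and 219 in WT, with overlapping groups and a log2 fold change of 0.19 ± 0.14 (limma adjusted p = 0.441). Leaving out Lcn10-KO replicate 2, its highest library, gave 0.038, and leaving out WT replicate 3 gave 0.31. *H2-DMb1* (chromosome 17, 34153072 to 34160230, plus strand) had 363, 429 and 410.4 normalized counts in Lcn10-KO, against 391, 379 and 414 in WT. Its groups overlapped, and the log2 fold change of 0.02 ± 0.08 (adjusted p = 0.905) had the narrowest 95% interval of the 8 genes tested, −0.15 to 0.19.

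*H2-DMb2* (chromosome 17, 34143307 to 34151555, plus strand), the neighbouring copy, had 7.46, 5.93 and 6.25 normalized counts in Lcn10-KO, against 3.40, 0 and 15.7 in WT. WT held both the highest and the lowest library. The gene did not pass the filter on low values, a normalized count of 10 or more in 3 or more libraries, and with no filter its log2 fold change was 0.85 ± 0.94 (limma adjusted p = 0.723). The windows printed above for *H2-DMb1* and *H2-DMb2* were identical in 58 of 67 bases, while the mean per kb was 285 for *H2-DMb1* and 4.41 for *H2-DMb2* in Lcn10-KO, and 281 for *H2-DMb1* and 4.28 for *H2-DMb2* in WT. Of all 31-base stretches in the transcripts of *H2-DMb2*, 29.7% also occur in *H2-DMb1*, and of those of *H2-DMb1*, 31.4% occur in *H2-DMb2*. Reads can therefore be split between the copies, and the values of both are uncertain in this respect. The size of this effect was not tested.

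H2-DO, which holds H2-DM back and is best known from B cells, was near the floor. *H2-Ob* (chromosome 17, 34238903 to 34254414, plus strand) had 7.45, 14.4 and 5.20 normalized counts in Lcn10-KO, against 10.3, 14.8 and 7.42 in WT, with a log2 fold change of −0.30 ± 0.44 (SE; limma adjusted p = 0.719). Leaving out Lcn10-KO replicate 3 gave −0.0064, and leaving out WT replicate 3 gave −0.52. Replicate 2 was the highest library in both genotypes. *H2-Oa* (chromosome 17, 34092340 to 34095234, plus strand) had 0, 1.69 and 1.04 in Lcn10-KO, against 2.26, 3.43 and 1.65 in WT, which is at most about 3 reads. It did not pass the filter, and with no filter its adjusted p was 0.300. No fold is given for *H2-Oa*, since both groups lie at the level of single reads.

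Over the 8 genes that passed the filter on low values, 0 were called by limma, against 9.84% of all genes tested. At an unadjusted p under 0.05 there was 1, *H2-Eb1*, against 26.3% of all genes, and the same gene was the only one of the 8 whose groups did not overlap, against 32.4%. The log2 fold change was above 0 in 5 and below 0 in 3, with a median of 0.11 beside −0.0011 over all genes tested.

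**Figure D3:**
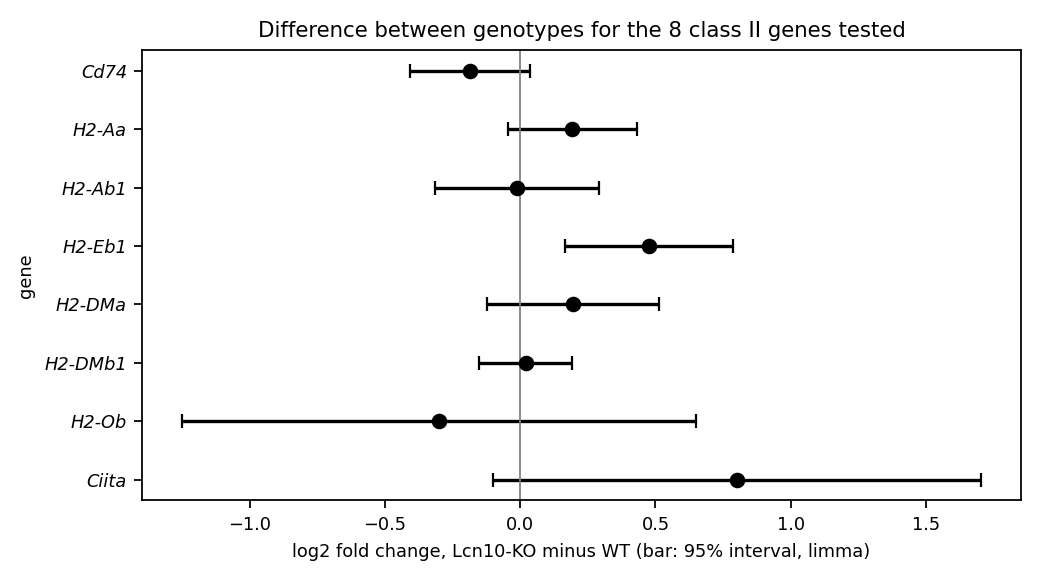
Log2 fold change (Lcn10-KO minus WT) with its 95% interval from limma for the 8 class II genes that passed the filter on low values. The interval of *H2-Eb1*, 0.17 to 0.79 and not corrected for the number of genes tested, is the one that does not include 0, and the intervals of *Ciita* and *H2-Ob* are the widest.

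Ratios within a library do not depend on the scaling between libraries. *Cd74* was present at 4.35, 3.69 and 3.85 normalized counts per count of the summed chains (*H2-Aa*, *H2-Ab1* and *H2-Eb1*) in Lcn10-KO, against 5.38, 5.21 and 4.80 in WT. The 3 Lcn10-KO libraries all lay below the 3 WT libraries, with a mean log2 difference of −0.37 and an exact two-sided permutation p of 0.1, the smallest that 3 against 3 libraries can give. With *H2-Ab1* alone as the denominator the groups overlapped (14.4, 11.4 and 14.1 in Lcn10-KO, against 15.2, 15.5 and 14.2 in WT; log2 difference −0.17, exact p = 0.2). With *H2-Aa* alone the log2 difference was −0.38 and with *H2-Eb1* alone −0.67, both without overlap (exact p = 0.1 each); these denominators were added after the values were seen. The summed chains themselves were 563, 700.1 and 552 in Lcn10-KO, against 484, 586 and 518 in WT (log2 difference 0.19, exact p = 0.3, and 0.078 without Lcn10-KO replicate 2). H2-DM per summed chain was 0.991, 1.00 and 1.11 in Lcn10-KO, against 1.17, 0.939 and 1.25 in WT (exact p = 0.6).

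The balance among the chains was looked at after the values were seen. *H2-Eb1* per *H2-Ab1* was 0.810, 0.633 and 0.883 in Lcn10-KO, against 0.468, 0.568 and 0.612 in WT, and *H2-Aa* per *H2-Ab1* was 1.51, 1.47 and 1.77 in Lcn10-KO, against 1.35, 1.41 and 1.35 in WT. In both ratios every Lcn10-KO library lay above every WT library (exact permutation p = 0.1 each). *H2-Eb1* per *H2-Aa* overlapped between the genotypes (0.537, 0.432 and 0.498 in Lcn10-KO, against 0.347, 0.404 and 0.454 in WT; exact p = 0.2). Over the 6 sums and ratios the Benjamini-Hochberg adjusted p was at least 0.2, and none passed.

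**Figure D4:**
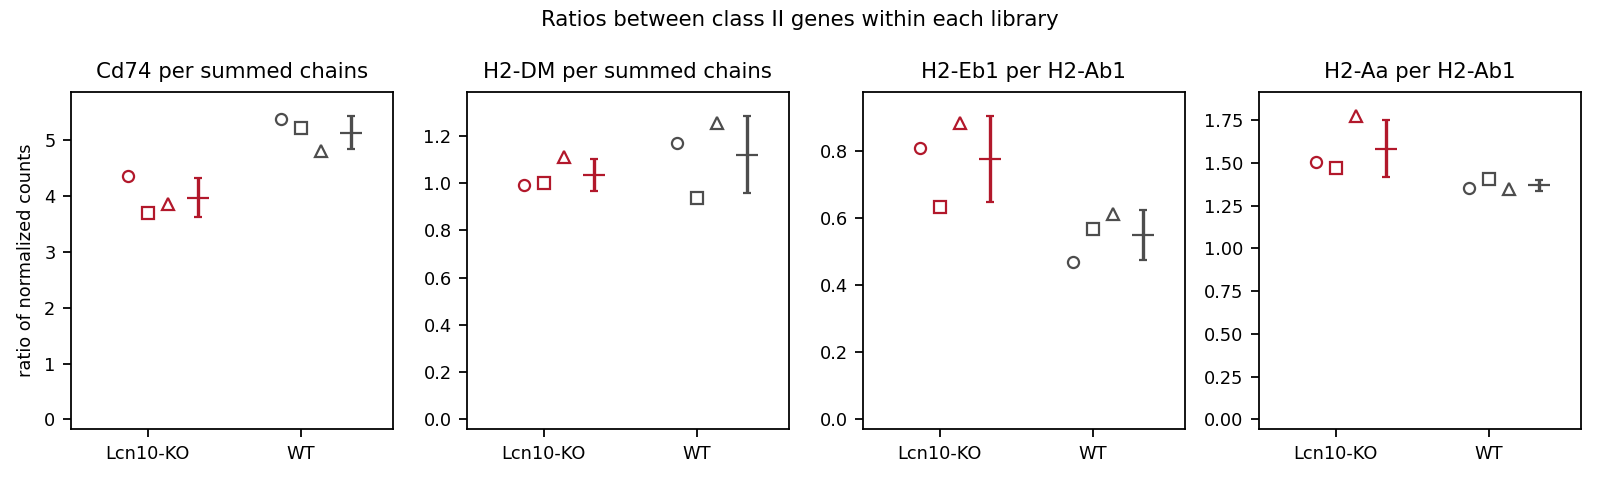
Ratios of normalized counts between class II genes in each library, Lcn10-KO left and WT right, with circle, square and triangle for replicates 1, 2 and 3 and a bar for mean and SD (n = 3). *Cd74* per summed chains separates the genotypes (3.69 to 4.35 in Lcn10-KO, 4.80 to 5.38 in WT), as do *H2-Eb1* and *H2-Aa* per *H2-Ab1*, whereas H2-DM per summed chains overlaps.

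Within a genotype the class II genes were not at an even level across the libraries. Centred on its own mean over the 6 libraries and averaged over the 8 tested genes, the log2 level was −0.04, 0.33 and −0.08 in Lcn10-KO replicates 1 to 3 and −0.08, 0.08 and −0.22 in WT replicates 1 to 3. Lcn10-KO replicate 2 thus stood above the rest, and it was the highest library for *H2-Aa*, *H2-Ab1*, *H2-Eb1*, *H2-DMa*, *H2-DMb1* and *Ciita*. Within each genotype, replicate 2 was the highest library for *H2-Aa*, *H2-Ab1*, *H2-Eb1*, *Cd74*, *H2-Oa* and *H2-Ob*. This was not so in both genotypes for *H2-DMa*, *H2-DMb1*, *H2-DMb2* and *Ciita*. All 8 genes weigh equally in the mean profile, also *Ciita* and *H2-Ob*, which had no more than about 22 reads per library. In WT replicate 3, *Ciita* was at 4.21, while *H2-DMa* (219) and *H2-DMb1* (414) had their highest WT value there. Part of the profile, and of the likeness to it, therefore rests on few reads. By Pearson's r over the 6 libraries, the 5 tested genes most like this mean profile were *Mtif3*, *Irak1bp1*, *Gm13212*, *Fggy* and *Txnl4b*, with r of 0.992 to 0.971. None of the 5 was past the threshold between the genotypes, and 36 of 12083 genes had an r above 0.9. The 5 were picked as the highest of all these genes over only 6 libraries. Whether such r values exceed those of unrelated genes was not tested.

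Genes that work with class II molecules are given next by list. These lists were chosen with earlier results of these data known, so their counts are no test of a list. In limma without a mean-variance trend, 14 genes in all passed, and 18 of the 19 genes called in these lists and in the marker lists missed the threshold. *Gbp5* kept its call (adjusted p = 0.0493), while *Notch4* (0.0515) and *Mertk* (0.0771) were among those lost. Among the factors that bind class II promoters, *Rfx5* was the gene past the threshold. Of 10 genes in that list, all tested, 1 was higher in Lcn10-KO, 0 lower and 9 not past the threshold, with a median log2 fold change of −0.03 (over all genes, 4.7% were higher and 5.14% lower). *Rfx5*, a DNA-binding subunit of the RFX complex at the X box, rose to 288, 275 and 306 normalized counts in Lcn10-KO, against 199.7, 252 and 220.2 in WT (log2 fold change 0.37 ± 0.10, limma adjusted p = 0.0341). Its groups did not overlap, and the call was lost without any library other than WT replicate 2 (adjusted p of 0.0574 to 0.140). Among genes of interferon-gamma signalling and its targets, 1 of 13 tested was higher and 0 lower, with a median of 0.04. That gene was *Gbp5*, an interferon-induced GTPase, at 18.1, 22.0 and 19.8 in Lcn10-KO against 6.85, 9.10 and 8.25 in WT (log2 fold change 1.21 ± 0.32, adjusted p = 0.0335, and 0.0625 without WT replicate 3). When any 1 Lcn10-KO library was left out it did not reach the filter on low values, and under quantile normalization its adjusted p was 0.0508. *Gbp5* passed that filter through the 3 Lcn10-KO libraries alone, so its count carries no weight for the list; with no filter its adjusted p was 0.0333.

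The list of endosomal enzymes and regulators that prepare antigen and trim the invariant chain had 4 of 10 genes higher, 0 lower and 6 not past the threshold, with a median log2 fold change of 0.15. Over all genes tested, 4.7% were higher and 5.14% lower. Since the list was chosen with earlier results of these data known, the count cannot show enrichment. *Lgmn*, an asparaginyl endopeptidase, rose to 28478 ± 705 normalized counts in Lcn10-KO, against 22803 ± 1916 in WT (log2 fold change 0.32 ± 0.06, limma adjusted p = 0.00717). The cathepsins *Ctsb*, *Ctsz* and *Ctsd* rose by 0.21 ± 0.04, 0.16 ± 0.04 and 0.14 ± 0.04 on the log2 scale. Under quantile normalization *Ctsb* was at 0.063 (limma adjusted p = 0.309) and *Ctsd* at 0. That method gives equal ranks an equal value in every library, so it cannot show a change in a gene that keeps its rank. Under median ratio rescaling *Ctsb* stayed at 0.21 and *Ctsd* at 0.14 (limma adjusted p = 0.00573 and 0.0336). Without Lcn10-KO replicate 2 all 4 enzymes missed the threshold (adjusted p of 0.0518 to 0.143). *Lgmn* also missed it without Lcn10-KO replicate 3, and *Ctsz* and *Ctsd* without Lcn10-KO replicate 1 or 3 or WT replicate 3. *Ctss*, the cathepsin that carries out the last steps of invariant chain removal, and *Ifi30*, a thiol reductase for antigen, did not pass (log2 fold changes 0.14 ± 0.04 and 0.16 ± 0.05, limma adjusted p = 0.0574 and 0.0604).

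Of 7 tested costimulatory genes, 1 was higher and 2 were lower, with a median of 0.11 (all genes: 4.7% higher, 5.14% lower). *Cd274*, which codes for PD-L1, rose by 0.38 ± 0.09 on the log2 scale, while *Tnfsf9*, the ligand of 4-1BB, fell by 0.46 and *Icosl*, the ligand of ICOS, fell by 0.29 (limma adjusted p of 0.0232, 0.0443 and 0.0472). All of them missed the threshold without Lcn10-KO replicate 2 or 3 (adjusted p of 0.111 to 0.164) and without WT replicate 3 (0.0637 to 0.107). *Icosl* also missed it without Lcn10-KO replicate 1 or WT replicate 1, and *Tnfsf9* without WT replicate 1 or 2. In the list of class II turnover genes and partners of CD74, 5 genes were tested, and *Cd44*, the signalling partner of CD74, fell by 0.16 (limma adjusted p = 0.0335), with 0 higher, 4 not past the threshold and a median of 0.13. *Cd44* missed the threshold without any 1 of the Lcn10-KO libraries (adjusted p of 0.0934 to 0.146). The ubiquitin ligases *Marchf1* and *Marchf8*, which remove class II molecules from the surface, are not analysed here, because the rows of that family carry dates in place of symbols.

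Around the class II genes on chromosome 17, 27 neighbouring genes were tested, with a median of −0.02. Of these, 1 was higher, 2 were lower and 24 did not pass (all genes: 4.7% higher, 5.14% lower). *Notch4*, a Notch receptor next to the class II region, fell to 71.6, 94.7 and 67.6 normalized counts in Lcn10-KO, against 225, 191 and 197 in WT (log2 fold change −1.39 ± 0.14, limma adjusted p = 0.000222). *H2-K1*, a class I heavy chain, rose by 0.25 ± 0.05 and *Wdr46*, a ribosome biogenesis factor, fell by 0.35 (adjusted p of 0.0142 and 0.0155). Without Lcn10-KO replicate 2 both missed the threshold (0.0898 and 0.0813), as did *H2-K1* without Lcn10-KO replicate 1 and *Wdr46* without Lcn10-KO replicate 3, while *Notch4* passed without each of the 6 libraries.

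**Figure D5:**
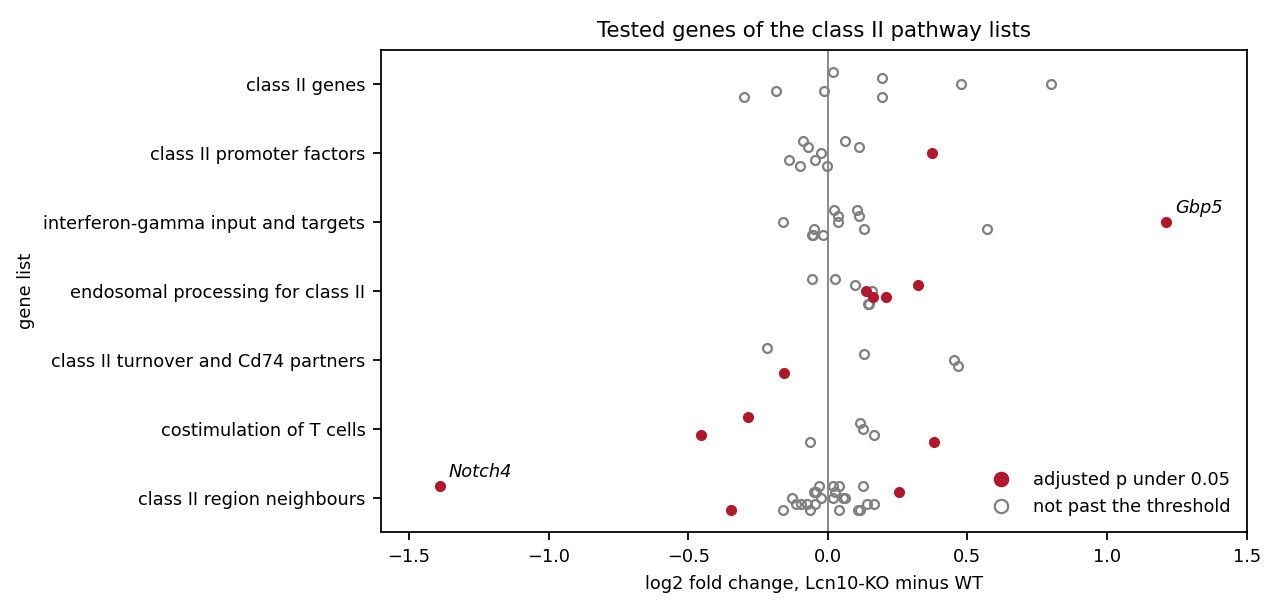
Log2 fold change (Lcn10-KO minus WT) of every tested gene in the class II group and the 6 related lists, filled red where the limma adjusted p is under 0.05 and open grey otherwise. None of the 8 class II genes is filled, 4 of 10 endosomal genes are filled on the higher side, and *Gbp5* and *Notch4* lie farthest from 0. Among all genes tested, 4.7% were higher and 5.14% lower. The lists were chosen with earlier results of these data known, so these counts cannot show enrichment.

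Other cell types, among them cells that make class II molecules, were looked for by their markers. In such bulk libraries, fewer cells of a type cannot be told apart from less RNA per cell. The macrophage markers *Csf1r*, *Adgre1*, *Mertk*, *Fcgr1* and *Cd68* had 810 to 39204 normalized counts in all 6 libraries. Of 10 macrophage markers, 3 were higher and 2 lower in Lcn10-KO, with log2 fold changes between −0.23 (*Csf1r*) and 0.44 (*Mertk*) among those called, and their summed level was 152524 to 159093 in Lcn10-KO and 148953 to 155918 in WT. For this and the marker counts below, limma called 9.84% of all genes tested, and 26.3% had an unadjusted p under 0.05. *Adgre1*, *C1qb* and *Cd14* missed the threshold without any 1 of the Lcn10-KO libraries, *Adgre1* and *Cd14* also without WT replicate 3, and *Csf1r* without Lcn10-KO replicate 2 or 3 (adjusted p of 0.0560 to 0.204), while *Mertk* passed without each of the 6 libraries. The defining dendritic cell markers *Flt3*, *Xcr1*, *Ccr7*, *Clec9a* and *Zbtb46* did not exceed 0.845, 1.14, 2.08, 5.41 and 10.3, and of 12 dendritic cell markers 3 were tested and 0 passed by limma (0 also at an unadjusted p under 0.05). Their summed level was 2069 to 2565 in Lcn10-KO and 1759 to 2263 in WT, most of it from *Itgax*, which macrophages also express and which was highest in Lcn10-KO replicate 2 (2304). The B cell markers *Cd79a*, *Ms4a1* and *Pax5* did not exceed 2.13 and were at 0 in every WT library. The summed level of 7 B cell markers was 234 to 259 in Lcn10-KO and 171 to 187 in WT, chiefly from *Cd22*, an inhibitory lectin (213 ± 16.4 in Lcn10-KO, 150.0 ± 16.3 in WT, limma adjusted p = 0.0173). *Cd22* missed the threshold without any 1 of the Lcn10-KO libraries or without WT replicate 3 (adjusted p of 0.0522 to 0.102). *Cd79b* of the same list was present in every library, at 36.9, 31.9 and 37.2 in Lcn10-KO against 17.9, 31.1 and 32.7 in WT. It did not pass (log2 fold change 0.41 ± 0.26, limma adjusted p = 0.358). Summed T and NK cell markers were at 7.45 to 18.7 in Lcn10-KO and 9.06 to 16.0 in WT, with *Cd3d*, *Cd3e* and *Ncr1* at no more than 3.42. Summed neutrophil and mast cell markers were at 249 to 274 in Lcn10-KO and 199.97 to 284 in WT, with *Ly6g* at 0, *Cpa3* at no more than 1.65 and *Mpo* at no more than 17.7. Most of that sum came from *S100a8* (98.9 to 130 over the 6 libraries) and *S100a9* (90.9 to 134). Summed endothelial and stromal markers were at 4023 to 4403 in Lcn10-KO and 3110.2 to 4733 in WT, and of their defining markers *Cdh5* was highest in Lcn10-KO replicate 2 (165), while *Kdr* (279.9) and *Col1a1* (1762) were highest in WT replicate 1. By limma 0 of 3 tested neutrophil and mast cell markers and 0 of 7 endothelial and stromal markers passed (0 of either at an unadjusted p under 0.05). The part of these cells in the class II values was not tested.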

How the data were processed

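RNA of 3 Lcn10-KO and 3 WT macrophage cultures was sequenced. The submitters' processing notes name build mm10 and, without role or order, STAR 2.6.1a, Salmon 0.11.2, bcl2fastq and DESeq2. Annotation, filters and use of strand: not given in the sources used here. Each deposited value is a signal: a read count per gene scaled between libraries by the authors. Library totals were 20476700 to 20636300. Low values clustered at multiples of the value of a read, 87.7% to 91.4% of them within 0.1 reads, so whole reads were not recovered and no count test was run; divided by the value of a read, totals come to about 18.0 to 24.9 (in units of 1e6 reads).

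Genes that reached 10 normalized counts in 3 or more libraries were tested as log2(value + 1) with limma 3.58.1 in R 4.3.3 (genotype as the only term, mean-variance trend, robust estimation), with Benjamini-Hochberg adjustment over all 12091 genes and a threshold of 0.05. This scale understates changes of low genes. Sums and ratios were compared by exact two-sided permutation tests (scipy 1.17.1). The limma procedure was tested on simulated data. The 14 gene lists, that of the members included, were chosen with earlier results of these data known. Named genes are the members, up to 4 called genes of each pathway list by p, the defining markers and the 5 genes most like the members' mean profile. *Ctss*, *Ifi30*, *Itgax*, *Cd22*, *Cd79b*, *S100a8*, *S100a9* and the genes beside *H2-Eb1* and *Ciita* were named after their values were seen. A defining marker is not reported here. Promoters are from RefSeq on GRCm38.p6, lengths and positions from GENCODE M21 on GRCm38, the assembly that mm10 names. Figures were drawn with matplotlib 3.10.9.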

Additional observations from a re-analysis of the deposited data

How the results depend on the processing

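The count of 0 class II genes called stayed at 0 under both pseudocounts, with no filter on low values, under quantile normalization and median ratio rescaling, and in limma without trend or robust estimation. It was 1 (*H2-Eb1*) with the stricter filter, 2 (*H2-Eb1*, adjusted p = 0.0364, and *Cd74*, 0.0240) with the replicate block, and 0 to 1 when a library was left out. Over all genes the count, 1190 as reported, was 14 in limma without trend (2713 at an unadjusted p under 0.05), 1607 with the replicate block, and 175 to 1664 when a library was left out (566, 207 and 175 without Lcn10-KO replicate 1, 2 or 3). Same-numbered libraries deviated together only weakly (r of 0.01 to 0.07), so the numbers were not taken as pairs, although 5 of 6 libraries correlated best with their own number. With libraries left out, the log2 fold change ran from −0.18 to 0.11 for *H2-Ab1* and from −0.030 to 0.090 for *H2-DMb1*, so neither has a stable sign, and from 0.33 to 0.56 for *H2-Eb1*. H2-DM per chain turned to 0.092 with *H2-Ab1* alone as denominator; the cause was not tested. Of the 19 called genes of the pathway and marker lists, 18 lost the call in limma without trend, 16 without Lcn10-KO replicate 2 and 5 under quantile normalization. The last method cannot show a change in a gene that keeps its rank in every library, and it set *Ctsd* to 0. The fewest reads, no more than about 22 per library, stand behind *Ciita*, *H2-Ob*, *H2-DMb2* and *H2-Oa*; whether depth decides their calls was not tested. Whether the intervals cover differences between mice is not known, since the replicates are not stated to be separate mice.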
